A study of Mus musculus with 6 samples.

Results

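The 35 genes described here are immediate early genes, those that cells transcribe first after a stimulus, in dissociated dorsal root ganglia of the mouse. They were chosen by name: every transcript of the deposited table whose gene symbol equals a listed member was taken, and transcripts were summed per gene. All 35 were found, on 117 transcript rows, among 54242 gene symbols in all. Dorsal root ganglia hold the cell bodies of sensory neurons beside the spinal cord. Messenger RNA was sequenced from L4-6 ganglia of male C57bl/6 mice aged 8-10 weeks, in 3 libraries from animals with food ad libitum (called fed) and 3 from animals whose Intermittent Fasting lasted 10 days (called fasted). The labels place the sacrifice of both groups after 24 hours without saying what these follow, so the feeding state at sacrifice is not known here. Ganglia from both groups were digested with Dispase II, Collagenase Type II and papain and enriched for neurons on a BSA gradient, so the levels below include whatever the dissociation did to these genes. No undissociated ganglia were analysed here. The labels do not say whether a library is 1 animal or a pool, so a p-value here speaks only of the spread from library to library, part of which may be technical. In such tissue libraries, fewer cells of a type and less RNA per cell cannot be told apart.

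Immediate early genes need no new protein to be switched on. Growth factors act on them through Ras and the ERK kinases, which activate Elk factors bound with SRF at the CArG box of a promoter, and calcium and cyclic AMP act through CREB, which binds the cyclic AMP response element. Most encode transcription factors, such as the FOS and JUN proteins that pair to form AP-1, while others switch the response off, such as the dual-specificity phosphatases that inactivate MAP kinases and the RNA-binding protein of Zfp36 that shortens the life of messenger RNA. In sensory neurons they are known to respond to noxious stimulation, nerve injury and the handling of the tissue.

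As abundances the 35 genes spanned more than 3 orders of magnitude. Values are TPM, the share of transcripts that a gene holds on a fixed scale, which divide by transcript length and can be set between genes, but keep no sequencing depth, so no counting interval is given. Jund, which codes for the JUN protein that many resting cells hold, was the most abundant at 175.6, 171.4 and 189.7 TPM in replicates 1, 2 and 3 of the fed group and 187.5, 186.3 and 186.9 TPM in those of the fasted group. The fasted values lie inside the fed range. Rhob, a small GTPase of the cytoskeleton and endosomes, came second at a mean of 119.1 TPM. The pair made up 46.4% of the summed TPM of all 35 genes. Below them lay Klf6 (38.0 TPM), Ier3 (33.8), Nr4a1 (25.5), Dusp5 (24.9), Dusp1 (21.4) and Gadd45g (21.3).

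Fos, the gene most used as a marker of recent stimulation, had a mean of 3.90 TPM, and 19.5% of the 15097 tested genes had a lower mean. Egr1 was at 6.49 TPM and Arc at 2.71 TPM. Of the 30 tested members, 15 had a mean of at least 10 TPM, against 63.6% of all tested genes. A further 5 stayed under the minimum of 1 TPM set for testing: Fosb at 0.51 to 0.96 TPM over the 6 libraries, the nuclear receptor gene Nr4a3 at 0.40 to 0.47, Egr4 at 0.13 to 0.48, Fosl1 at 0.09 to 0.24, and Npas4, a factor that neurons switch on after calcium entry, at 0.04 to 0.09 TPM. The median over the 30 tested members was 9.35 TPM and that over all tested genes 18.2 TPM. In the order of levels, 7 of the 34 neighbouring pairs had ranges that did not meet over the 6 libraries, among them Jund above Rhob, Rhob above Klf6, Ier3 above Nr4a1 and Homer1 above Myc. From Nr4a1 down to Homer1, and from Myc down to Ier5, no neighbours stood apart.

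**Figure D1:**
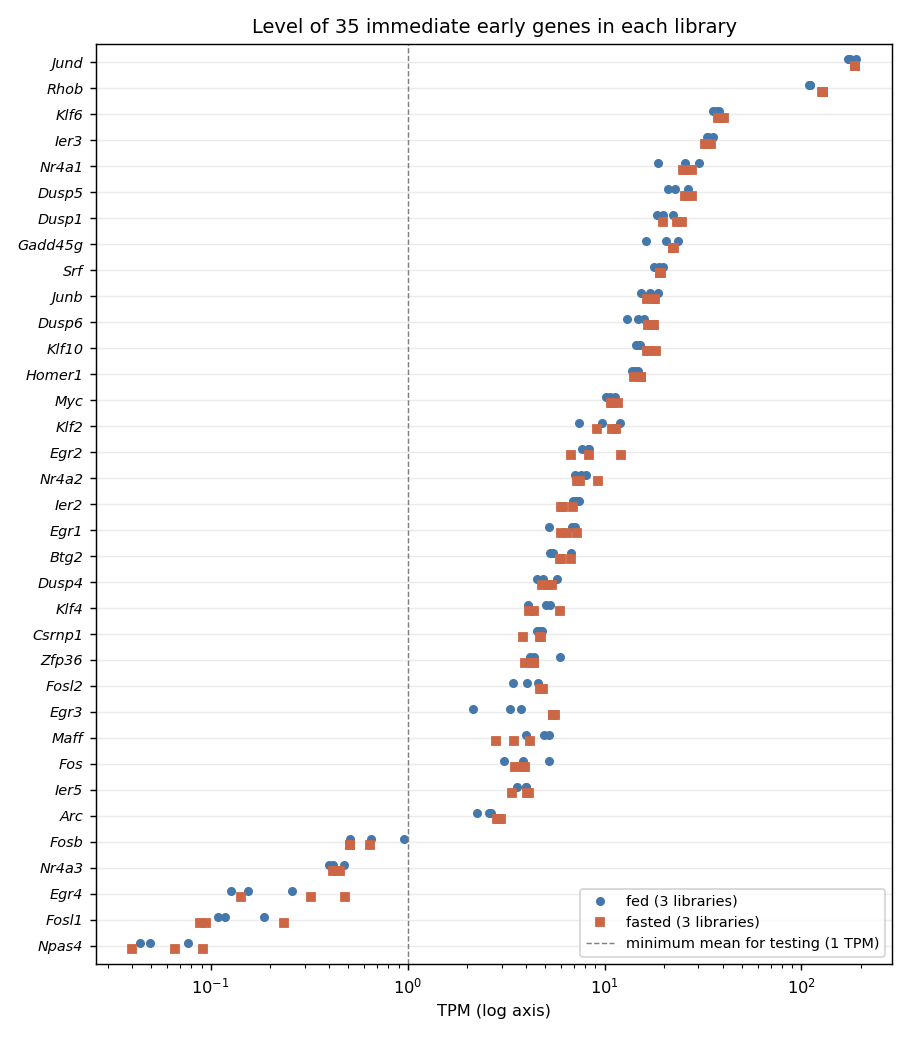
TPM of the 35 genes in each library on a log axis, ordered by mean, with fed libraries as circles and fasted libraries as squares; the dashed line is the 1 TPM minimum. Jund and Rhob lie above 100 TPM, and 5 genes lie left of the line.

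Promoters of 4 members are printed to show the letters through which the inputs above are known to act: Fos and Nr4a1 as classic cyclic AMP targets, Srf as a gene with CArG boxes of its own, and Rhob as the member with the smallest p. RefSeq windows of 300 bases, from 250 before to 50 after the start (GRCm38.p6), were found for 27 of the 35 genes; Fosl1, Egr1, Egr3, Klf10, Myc, Dusp4, Ier2 and Arc had none. Capitals mark matches on either strand to the CArG box, to the cyclic AMP response element TGACGTCA or its core TGACG, to the AP-1 site TGAGTCA and to the EGR site GCGGGGGCG. The core lies within the longer element, and such matches overlap. Fos (chr12:85473640-85473939, plus strand) has 2 cores, Nr4a1 (chr15:101266596-101266895, plus strand) has 4 cores, read here on the other strand, and 1 EGR match, and Srf (chr17:46556113-46556412, minus strand) has 2 CArG boxes, 1 core and 1 EGR match. Rhob (chr12:8499960-8500259, minus strand) has no match in its window. Sites more than 250 bases before a start lie outside these windows. The lack of a CArG match in Fos thus holds for its window only.
Fos: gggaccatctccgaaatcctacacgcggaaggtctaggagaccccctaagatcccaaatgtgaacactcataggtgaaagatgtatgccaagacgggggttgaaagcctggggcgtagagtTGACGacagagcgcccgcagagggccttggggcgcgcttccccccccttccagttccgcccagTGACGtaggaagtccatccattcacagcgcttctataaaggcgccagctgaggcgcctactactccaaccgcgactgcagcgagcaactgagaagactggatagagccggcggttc
Nr4a1: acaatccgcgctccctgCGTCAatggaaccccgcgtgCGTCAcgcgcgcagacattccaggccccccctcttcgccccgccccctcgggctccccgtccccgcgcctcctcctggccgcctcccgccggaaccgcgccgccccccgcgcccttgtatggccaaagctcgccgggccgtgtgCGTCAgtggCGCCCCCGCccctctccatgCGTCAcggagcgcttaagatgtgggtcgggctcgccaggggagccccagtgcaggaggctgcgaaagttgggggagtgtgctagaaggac
Srf: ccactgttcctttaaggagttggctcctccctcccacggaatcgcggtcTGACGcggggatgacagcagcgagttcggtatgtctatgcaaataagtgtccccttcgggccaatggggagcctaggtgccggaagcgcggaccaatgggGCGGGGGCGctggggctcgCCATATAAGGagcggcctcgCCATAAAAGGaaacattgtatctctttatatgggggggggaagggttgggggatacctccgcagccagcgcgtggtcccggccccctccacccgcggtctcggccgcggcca
Rhob: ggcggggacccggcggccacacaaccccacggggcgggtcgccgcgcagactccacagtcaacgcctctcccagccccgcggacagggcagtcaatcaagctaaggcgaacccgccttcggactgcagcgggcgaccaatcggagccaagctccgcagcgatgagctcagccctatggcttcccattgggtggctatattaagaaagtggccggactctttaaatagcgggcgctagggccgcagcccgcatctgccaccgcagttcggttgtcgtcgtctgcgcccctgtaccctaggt

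Counted per gene over all its windows, the core TGACG was found in 18 of the 27 members, against 23.0% of 27025 genes in the table. The EGR match was found in 7 members (3.3% of genes), among them Fosb, Fosl2, Klf2, Klf4 and Zfp36, and the CArG box in 4 (1.8% of genes): Egr2, Srf, Dusp5 and Zfp36. TGACGTCA occurred in 3 members, Maff, Dusp1 and Btg2 (2.0% of genes), and TGAGTCA in 1, Csrnp1 (5.9%). Per window, the shares over all 32851 windows were 20.8%, 2.9%, 1.6%, 1.8% and 5.2% in the same order. Genes with several windows have more chances of a match; of the 23 members with a single window, 14 held the core. The windows of all genes were not matched to those of the members in base composition, so these shares are no test of enrichment. Jund, Klf6, Dusp6, Ier3, Ier5, Gadd45g and Rhob held none of the motifs. The windows follow RefSeq starts, which need not be those of the deposited transcripts: that of Jund ends at position 70697788 of chromosome 8, before its only deposited transcript starts at 70698949 on the plus strand. A match describes letters and not a bound site, and a window without one says nothing about the factors.

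No immediate early gene passed the test across all genes between fasted and fed ganglia, and the largest differences were those of Egr3, higher when fasted, and Maff, lower. Of the 30 members with a mean of at least 1 TPM, 22 were higher and 8 lower in fasted libraries. None had an adjusted p under 0.05 (limma on log2(TPM + 1), Benjamini-Hochberg adjustment over 15097 genes), where 0.00662% of all tested genes, a single gene, passed. The smallest adjusted p among members was 0.35. Without adjustment, 5 members had p under 0.05 (background 9.94%), 4 of them higher, Rhob, Egr3, Klf10 and Dusp6 (background 6.72%), and 1 lower, Maff (background 3.22%). The background split depended on the scaling, with 1015 genes higher and 486 lower on TPM, 623 and 691 under median-of-ratios scaling, 663 and 661 under quantile normalization, and 557 and 756 without mitochondrial genes; the members gave 4 and 1, 4 and 1, 4 and 0, and 4 and 1 in the same order.

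Most genes of the whole table were higher in the fasted group on this scale too. The share was 62.5% over the whole tested table and 73.3% over the members. Median-of-ratios scaling put 52.9% of all genes and 21 of 30 members higher, quantile normalization 54.7% and 24, and TPM without mitochondrial genes 50.3% and 21. The median log2 fold change was 0.064 over the members and 0.031 over all tested genes, on a scale that understates the change of low genes. The members' median was 0.039 under median-of-ratios scaling and 0.033 without mitochondrial genes, with all-gene medians of 0.006 and 0.001. In 7 members, or 23.3%, the fed and fasted libraries did not overlap, against 17.8% of all tested genes. Higher without overlap were 6 (background 12.7%), namely Rhob, Egr3, Klf10, Dusp6, Fosl2 and Arc, and lower was 1 (background 5.07%), Ier2.

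**Figure D2:**
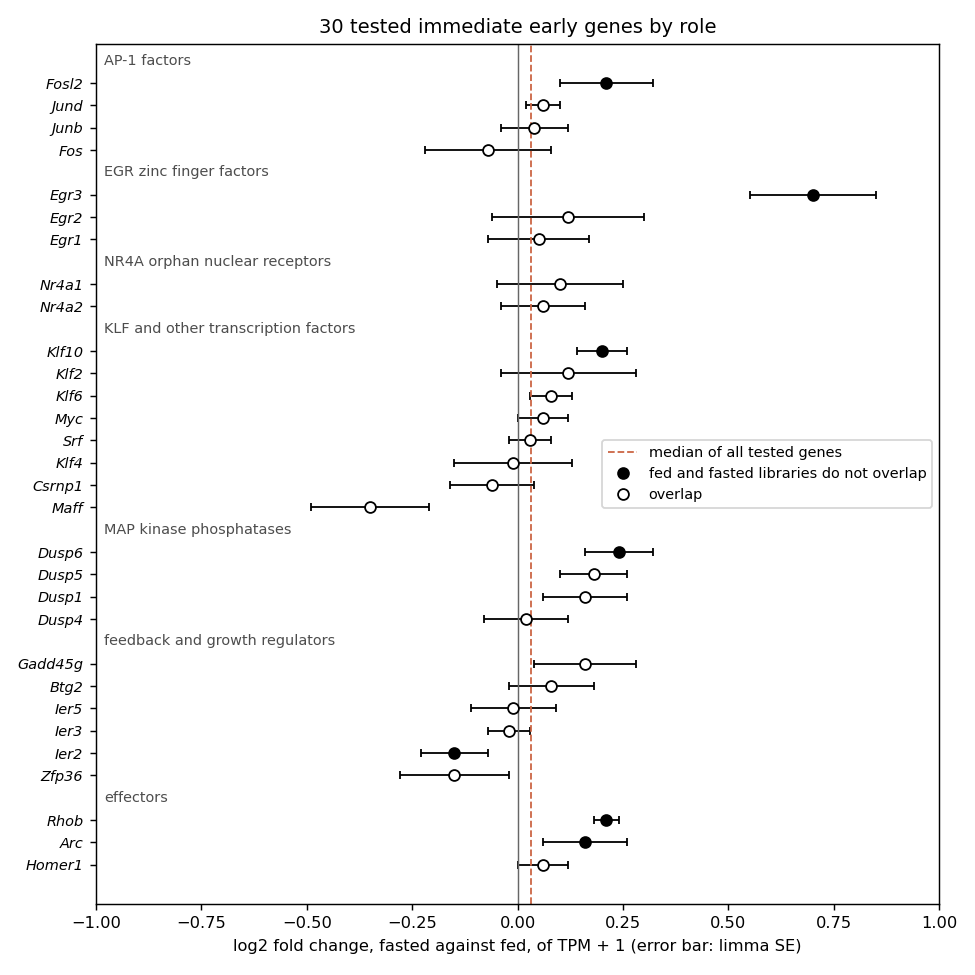
Log2 fold change of TPM + 1, fasted against fed, for the 30 tested members grouped by role, with limma standard errors; filled points mark the 7 genes whose fed and fasted libraries do not overlap, and the dashed line is the median of all tested genes, 0.03. Egr3 lies farthest to the right at 0.70 and Maff farthest to the left at -0.35.

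Of the 4 tested AP-1 genes, 3 overlapped between the diets and Fosl2 did not. Fos lay between 3.09 and 5.22 TPM in fed ganglia and between 3.50 and 3.93 TPM in fasted ganglia (log2 fold change -0.07, standard error, SE, 0.15). Its fed range encloses the fasted one, and fed replicate 2 holds the highest value. Junb, an AP-1 partner that can restrain JUN, was at 17.0 ± 1.74 against 17.5 ± 0.94 TPM (SD, n = 3 each), and Jund at 178.9 ± 9.61 against 186.9 ± 0.64 TPM. Fosl2, which codes for the longer-lived FOS relative FRA-2, was at 3.43, 4.62 and 4.02 TPM in fed ganglia and at 4.68, 4.80 and 4.86 TPM in fasted replicates 1, 2 and 3. All 3 fasted values lie above the fed ones, the nearest by little (log2 fold change 0.21, SE 0.11 by limma; adjusted p = 0.52). Under median-of-ratios scaling and without mitochondrial genes the groups of Fosl2 overlapped.

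Among the EGR zinc finger genes, Egr3 stood out and Egr1 did not. Egr3, which many neurons induce with activity, lay at 2.15, 3.31 and 3.76 TPM in fed ganglia and at 5.46, 5.63 and 5.47 TPM in fasted replicates 1, 2 and 3. The fasted libraries lay close together above all fed ones, and fed replicate 1 was the lowest. Its log2 fold change of 0.70 (SE 0.15 by limma; adjusted p = 0.42) was the largest among the tested members. Omitting single libraries gave 0.52 to 0.82, but on protein-coding transcripts alone it was 0.34, smaller in size than that of Maff at -0.35. Over all alternatives the adjusted p ran from 0.255 to 0.692. The gene lies on chromosome 14, 70077203 to 70082614, plus strand (GRCm38, GENCODE M21).

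Egr1 was at 5.22 to 7.08 TPM in fed ganglia and 6.03 to 7.29 TPM in fasted ganglia (log2 fold change 0.05, SE 0.12). Egr2, which Schwann cells need for myelination, was at 7.72 to 8.33 TPM in fed libraries and at 6.78, 8.38 and 12.2 TPM in fasted replicates 1, 2 and 3. Its spread came mostly from fasted replicate 3, and without that library its log2 fold change turned from 0.12 to -0.09. The summed TPM of 9 Schwann cell markers, Egr2 among them, ran from 7339 to 8204 in fed ganglia and from 7646 to 8490 in fasted ganglia, highest in fasted replicate 3. Its part in the value of Egr2 was not tested.

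The NR4A genes, orphan nuclear receptors induced by calcium and cyclic AMP, overlapped between the diets. Nr4a1 was at 18.7, 30.3 and 25.6 TPM in fed ganglia and at 25.0, 25.8 and 27.7 TPM in fasted replicates 1, 2 and 3. Fed replicate 1 was the lowest and fed replicate 2 the highest of the 6. Its log2 fold change was 0.10 (SE 0.15), and -0.09 without fed replicate 1. Nr4a2 was at 7.55 ± 0.46 against 7.97 ± 1.09 TPM (SD, n = 3 each).

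Of the 8 tested KLF genes and other transcription factors, 5 were higher and 3 lower in the fasted group. Klf10, a repressor induced by TGF-beta, was at 14.5, 14.6 and 15.2 TPM in fed ganglia and at 18.2, 16.8 and 16.4 TPM in fasted replicates 1, 2 and 3. The groups did not overlap (log2 fold change 0.20, SE 0.06 by limma; adjusted p = 0.45). Klf6, a factor linked to axon growth, was at 37.1, 35.5 and 38.1 TPM in fed ganglia and 37.7, 38.9 and 40.6 TPM in fasted ganglia. These overlapped by a narrow margin (log2 fold change 0.08, SE 0.05). Klf2 and Klf4, which endothelial cells express under blood flow, were at 9.69 ± 2.28 against 10.5 ± 1.23 TPM and at 4.82 ± 0.63 against 4.83 ± 0.995 TPM (SD, n = 3 each). Beside them, 13 of 14 endothelial markers were lower in fasted libraries, with a summed level of 264.1 to 315.0 TPM in fed ganglia and 225.8 to 248.8 TPM in fasted ganglia. No endothelial marker passed by limma (unadjusted p under 0.05 in 7, all lower, background 3.22%). The part of endothelial cells in the values of Klf2 and Klf4 was not tested.

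Maff, a small MAF protein with no activation domain of its own, was the member farthest below. It was at 5.21, 4.92 and 3.99 TPM in fed ganglia and at 4.17, 2.81 and 3.46 TPM in fasted replicates 1, 2 and 3. Only fasted replicate 1 reached into the fed range (log2 fold change -0.35, SE 0.14 by limma; adjusted p = 0.50). Srf, the factor that binds the CArG box and carries 2 such boxes in its own promoter, was at 18.8 ± 1.03 against 19.3 ± 0.16 TPM. Myc, a growth-promoting factor, was at 10.7 ± 0.55 against 11.2 ± 0.47 TPM, and Csrnp1, a nuclear protein induced by AXIN, at 4.67 ± 0.13 against 4.44 ± 0.50 TPM (SD, n = 3 each).

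All 4 MAP kinase phosphatase genes among the members had positive log2 fold changes, and none passed. Dusp6, whose product inactivates ERK in the cytoplasm, was at 14.9, 13.0 and 15.9 TPM in fed ganglia and at 17.6, 17.9 and 16.6 TPM in fasted replicates 1, 2 and 3. Its groups did not overlap (log2 fold change 0.24, SE 0.08 by limma; adjusted p = 0.48), but did on protein-coding transcripts alone. Dusp5, which inactivates ERK in the nucleus, was at 22.7, 20.96 and 26.4 TPM against 26.2, 25.7 and 27.7 TPM. Fed replicate 3 lay among the fasted libraries (log2 fold change 0.18, SE 0.08 by limma; adjusted p = 0.52). Dusp1, which acts mainly on p38 and JNK, was at 19.8, 22.2 and 18.5 TPM against 19.9, 23.3 and 24.9 TPM, with overlap. Dusp4 was at 5.05 ± 0.63 against 5.12 ± 0.30 TPM (SD, n = 3 each), and its sign turned under median-of-ratios scaling (-0.002) and without mitochondrial genes (-0.0074). The median over the 4 genes was 0.17, beside 0.03 for all tested genes, of which 62.5% were higher. A second list of early genes, read below, holds further Dusp genes. There Dusp8, Dusp10 and Dusp14 had log2 fold changes of 0.17, 0.06 and 0.01, and Dusp16 had -0.19. Dusp8 and Dusp16 did not overlap between the diets. Dusp2 was under the minimum for testing, at a mean of 0.36 TPM in fed and 0.25 TPM in fasted ganglia.

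Among the regulators of messenger RNA, growth and survival, 2 were higher and 4 lower. Ier2, a nuclear protein of the growth factor response, was at 6.902, 7.17 and 7.40 TPM in fed ganglia and at 6.03, 6.16 and 6.898 TPM in fasted replicates 1, 2 and 3. The groups missed each other by the third decimal (log2 fold change -0.15, SE 0.08 by limma; adjusted p = 0.53). Zfp36, the gene of tristetraprolin, was at 4.18, 5.97 and 4.38 TPM against 3.96, 4.37 and 4.37 TPM, highest in fed replicate 2. Ier3, which affects cell survival, was at 33.4, 35.5 and 33.2 TPM against 32.5, 34.9 and 33.3 TPM, and its highest library exceeded its lowest by a factor of 1.1. Gadd45g, a stress-induced growth arrest gene, was at 20.4, 23.7 and 16.2 TPM in fed ganglia and 22.2, 22.6 and 22.3 TPM in fasted ganglia. Its fed libraries spread widely around the narrow fasted ones. Ier5 (3.86 ± 0.24 against 3.84 ± 0.41 TPM) and the antiproliferative Btg2 (5.85 ± 0.78 against 6.24 ± 0.44 TPM) overlapped as well (SD, n = 3 each).

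The 3 effector genes were higher in fasted libraries, and Rhob had little spread inside either group. Rhob was at 109.7, 110.5 and 111.05 TPM in fed ganglia and at 126.5, 128.3 and 128.5 TPM in fasted replicates 1, 2 and 3. The groups stand clear of each other, with a gap many times the spread inside either (log2 fold change 0.21, SE 0.03 by limma; unadjusted p = 0.00023, adjusted p = 0.35). Its log2 fold change ran from 0.17 to 0.22 over all alternatives, and the adjusted p by limma from 0.222 to 0.677. The groups overlapped in none of the 17, but only the settings that rescale libraries could have made them overlap. These were median-of-ratios scaling, quantile normalization and TPM without mitochondrial genes. Rhob has a single annotated transcript of 1 exon on chromosome 12, 8497661 to 8500009, minus strand (GRCm38, GENCODE M21). Arc, whose protein acts at synapses, was low at 2.65, 2.60 and 2.25 TPM against 2.92, 2.85 and 2.995 TPM, without overlap (log2 fold change 0.16, SE 0.10 by limma; adjusted p = 0.55). Homer1, a scaffold protein of glutamate receptor signalling, was at 14.3 ± 0.49 against 14.9 ± 0.66 TPM (SD, n = 3 each).

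**Figure D3:**
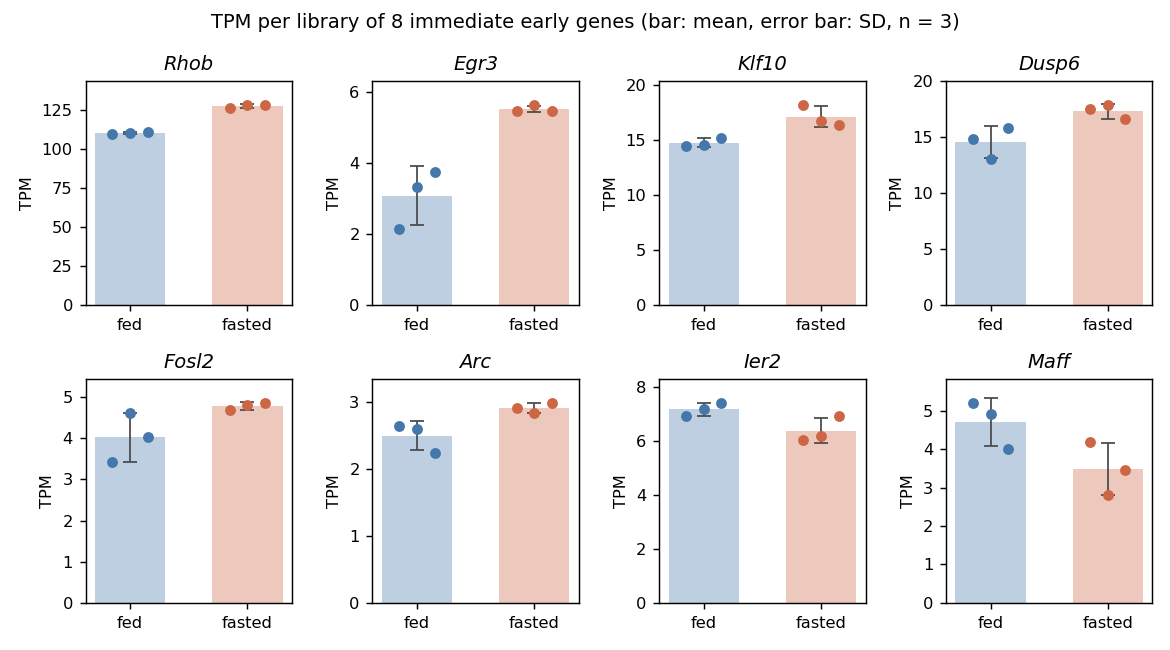
TPM per library of the 7 members whose groups do not overlap and of Maff; bars are group means, error bars SD, n = 3, and axes start at 0. Rhob shows fed libraries at 109.7 to 111.05 TPM and fasted ones at 126.5 to 128.5 TPM, while Ier2 all but touches at 6.902 and 6.898 TPM.

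In TPM, the larger part of the difference in Egr3 and nearly all of that in Dusp6 lay in transcripts annotated as non-coding. The mean of Egr3 was 3.07 TPM in fed and 5.52 TPM in fasted ganglia, and that of its protein-coding sum 2.36 and 3.26 TPM. Egr3 has 4 transcripts in the table. Its single-exon form with a retained intron, Egr3-202, was at 0, 0.80 and 1.06 TPM in fed ganglia and at 2.005, 2.62 and 1.44 TPM in fasted replicates 1, 2 and 3. Of the 2 protein-coding forms, the shorter Egr3-201 was at 0.60, 0.52 and 0.39 TPM against 1.38, 1.27 and 1.15 TPM, while the longer Egr3-204 overlapped at 1.86 ± 0.27 against 1.995 ± 0.23 TPM (SD, n = 3 each). Summed over protein-coding transcripts, Egr3 was at 2.15, 2.52 and 2.42 TPM against 3.45, 3.01 and 3.33 TPM. The groups still did not overlap, and their log2 fold change was 0.34 (SE 0.09 by limma; adjusted p = 0.37). These are forms of a single gene, and how the reads were divided among them was not tested.

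Dusp6-203, a processed transcript of 876 bases with no coding sequence, was at 3.91, 0 and 0 TPM in fed ganglia and at 5.41, 2.34 and 3.33 TPM in fasted ganglia. The protein-coding sum of Dusp6 was 11.0, 13.0 and 15.9 TPM against 12.2, 15.4 and 13.3 TPM, which overlapped (log2 fold change 0.04, SE 0.13 by limma; adjusted p = 0.91). Over the 30 members tested on protein-coding transcripts, 22 were higher and 8 lower, where 65.3% of all genes were higher. None passed, and 7 did not overlap, against 19.2% of all genes. Klf6 then did not overlap, at 36.0 ± 0.93 against 38.2 ± 1.75 TPM, in place of Dusp6. Forms of any type other than protein-coding held over 10% of the summed TPM in 5 of the 35 genes, among them Egr3 at 34.5%, Nr4a2 at 24.2% and Dusp6 at 15.8%. Not all of these lack a coding sequence: Nr4a2-206, annotated for nonsense-mediated decay, has 1176 coding bases.

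**Figure D4:**
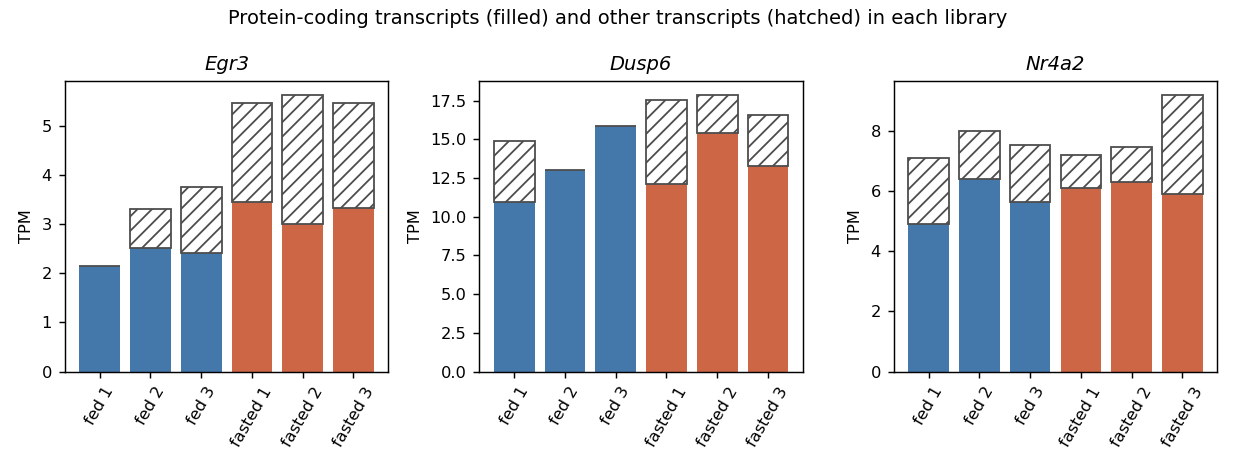
TPM of Egr3, Dusp6 and Nr4a2 in each library, split into protein-coding transcripts (filled) and all other annotated transcripts (hatched). The filled part of Egr3 is 2.15 to 2.52 TPM in fed ganglia and 3.01 to 3.45 TPM in fasted ganglia, and that of Dusp6 overlaps between the diets.

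Homer1 has short forms that neurons make after activity and that lack the coiled coil of the long ones. The 8 annotated short forms have coding lengths of 540 to 699 bases and the 3 long ones 1062 to 1110 bases. Short forms held 36.5%, 34.3% and 33.4% of the Homer1 TPM in fed ganglia and 34.3%, 33.7% and 35.6% in fasted replicates 1, 2 and 3. The division between short and long forms thus overlapped between the diets, as did their sums, at 5.03, 5.06 and 4.78 TPM of short forms against 5.24, 4.77 and 5.46 TPM.

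Among the libraries of a group, the members' median SD on the log2(TPM + 1) scale was 0.13 in fed and 0.07 in fasted libraries, against 0.09 and 0.07 over all tested genes. The SD was larger in the fed group for 18 of 30 members and for 59.8% of all tested genes. Fed replicate 1 had the lowest value of the 6 libraries in 13 of the 30 tested members and the highest in 1. Fed replicate 2 had the highest in 10, among them Fos, Nr4a1, Klf2 and Zfp36. The median deviation of the members from their 6-library mean was -0.10 in fed replicate 1, where that of all tested genes was -0.01. Without fed replicate 1, 18 members were higher and 12 lower, and their median of 0.036 equalled that of all genes. Without fed replicate 2 the members' median was 0.099, with 25 higher and 5 lower, beside 0.021 over all genes, and without fasted replicate 1 it was 0.104, beside 0.036.

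**Figure D5:**
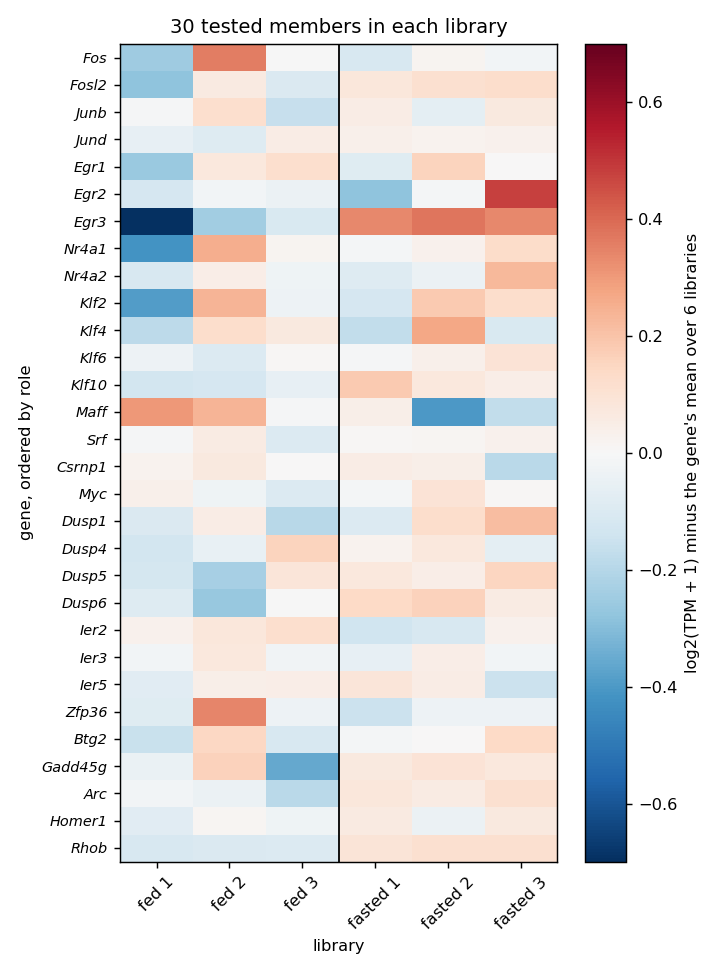
Deviation of each tested member from its mean over 6 libraries, on the log2(TPM + 1) scale, with genes ordered by role and the vertical line between fed and fasted libraries. Fed 1 is blue for most members, fed 2 is red for Fos, Nr4a1, Klf2 and Zfp36, and the row of Rhob changes from blue to red at the line.

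Fed replicate 2 also stood apart in marker genes of cells other than neurons. The summed level of 12 skeletal muscle genes was 4608.6 TPM there and 277.4 to 664.5 TPM in the other 5 libraries, and all 12 were highest in it. Pvalb, one of the 12, was at 542.9 TPM there and made up 197.4 to 234.9 TPM of the sums in the other 5. How much of Pvalb came from muscle was not tested. Over 14 macrophage markers the sum was 169.9 to 202.5 TPM in fed, highest in replicate 2, and 123.6 to 144.0 TPM in fasted ganglia. All 14 were lower in fasted libraries and none passed the threshold (unadjusted p under 0.05 by limma in 9, background 3.22% lower). The 15 neuronal markers summed to 20993.5 to 23226.5 TPM in fed, lowest in replicate 2, and 22888.2 to 24092.9 TPM in fasted ganglia. All 15 had a mean above 1 TPM, and 14 were higher in fasted libraries (background 62.5%). Satellite glia markers summed to 5758.7 to 6531.2 TPM in fed ganglia and 5778.5 to 6002.8 TPM in fasted ganglia, and haemoglobin and other erythrocyte genes to 1284.6 to 1564.9 TPM and 1716.4 to 3281.4 TPM. For pericytes the sums were 182.0 to 186.5 and 149.8 to 191.0 TPM, for fibroblasts 1919.5 to 1971.0 and 1723.1 to 1877.7 TPM, and for neutrophils and T cells, with 5 of 8 markers under 1 TPM, 100.1 to 179.2 and 69.2 to 200.9 TPM. The 13 mitochondrial genes summed to 56211.3 to 88601.2 TPM in fed, highest in replicate 2, and 47399.5 to 51477.5 TPM in fasted ganglia. No listed marker was at 0 in all libraries. The part of these cells in the values of the early genes was not tested. Without fed replicate 2, the log2 fold change was 0.21 for Rhob and 0.75 for Egr3.

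Other genes of the early response were read from a second list of 50, which includes Jun and Atf3. Of its 47 tested genes, 29 were higher (61.7%, background 62.5%) and 18 lower in fasted libraries. No overlap was seen in 12 (25.5%, background 17.8%), 11 of them higher (background 12.7%). None passed by limma (unadjusted p under 0.05 in 10 higher and 2 lower, background 6.72% and 3.22%). The median was 0.06. Jun, the partner of FOS in AP-1, was at 65.8, 64.8 and 61.8 TPM in fed ganglia and at 68.8, 70.8 and 71.3 TPM in fasted replicates 1, 2 and 3, without overlap (limma, adjusted p = 0.48). Atf3, an AP-1 relative induced by injury, was at 13.0, 18.04 and 6.22 TPM against 6.70, 6.03 and 8.03 TPM (log2 fold change -0.66, SE 0.32 by limma; adjusted p = 0.52). Fed replicate 3 lay inside the fasted range and the other two fed libraries above it. The smallest p belonged to Per1, a light- and glucocorticoid-induced clock gene, at 7.86, 10.2 and 9.68 TPM against 14.9, 15.4 and 13.4 TPM (log2 fold change 0.61, SE 0.10 by limma; adjusted p = 0.40). Klf9, another glucocorticoid-induced KLF gene, at 53.4 ± 1.88 against 63.1 ± 3.58 TPM, and Arl4d, a small GTPase gene, at 15.9 ± 0.70 against 18.5 ± 0.31 TPM, followed it (SD, n = 3 each).

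The kinases and factors that act upstream were all above 1 TPM, with small log2 fold changes. All 50 listed genes were tested. Of these, 34 were higher (background 62.5%) and 16 lower, and 11 (22.0%) did not overlap (background 17.8%). None passed by limma (unadjusted p under 0.05 in 4 higher and 1 lower, background 6.72% and 3.22%). The log2 fold changes of the 50 genes ran from -0.20 to 0.16. Their median of 0.03 was that of all tested genes. Nras, a RAS GTPase, was at 56.1 ± 1.80 against 62.5 ± 2.60 TPM, and Rps6ka4, a kinase that phosphorylates histone H3 and CREB, at 25.5 ± 0.18 against 28.7 ± 1.49 TPM. Elk1, the SRF partner that ERK phosphorylates, was lower in every fasted library, at 8.32, 8.12 and 8.65 TPM against 7.15, 7.11 and 7.21 TPM (log2 fold change -0.20, SE 0.06 by limma; adjusted p = 0.48).

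Genes that tissue dissociation and heat are known to raise were split evenly. Their list shares Jun, Atf3, Nfkbia, Nfkbiz, Socs3, Cebpb, Cebpd, Gadd45b and Ppp1r15a with the second list of early genes, so the lists are not separate. Of 33 listed, 32 were tested, 16 higher (background 62.5%) and 16 lower, with a median of 0.003, beside 0.031 for all tested genes. No overlap was seen in 7 (21.9%, background 17.8%), 2 higher and 5 lower (background 12.7% and 5.07%). None passed by limma (unadjusted p under 0.05 in 1 higher and 3 lower, background 6.72% and 3.22%). The higher gene was Jun, already described. Sat1, a polyamine acetyltransferase gene, was at 127.5, 153.3 and 122.8 TPM in fed ganglia and at 98.6, 100.2 and 105.3 TPM in fasted replicates 1, 2 and 3 (log2 fold change -0.40, SE 0.08 by limma; adjusted p = 0.41). Hspa1b, an inducible HSP70 gene, was at 18.1 ± 1.80 against 14.1 ± 1.04 TPM (SD, n = 3 each). The summed level of the list was 14932.6 to 16166.1 TPM in fed ganglia and 15440.3 to 15815.6 TPM in fasted ganglia. The corresponding sum of the 35 immediate early genes was 606.2 to 638.2 TPM in fed ganglia and 661.8 to 684.0 TPM in fasted ganglia, and without Jund and Rhob it overlapped, at 320.9 to 356.3 against 347.7 to 368.6 TPM.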

How the data were processed

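The deposited table gives TPM per transcript, made by the authors. The submitters' processing notes list DESeq2 1.34.0, Salmon 1.6.0, Trim Galore 0.6.6 and FastQC 0.11.9, and the builds mm10 and GRCm38; their roles and the annotation release are not given in the sources used here. Groups and replicate numbers came from sample titles. TPM were summed per gene symbol (54242), and the 15097 genes whose 6-library mean reached 1 TPM were tested as log2(TPM + 1) with limma 3.58.1 in R 4.3.3 (group as the only term, trended empirical Bayes, two-sided, Benjamini-Hochberg adjustment, threshold 0.05). TPM keep no depth, so there was no count test, and how precise low values are is unknown. Transcript types, exons and coordinates came from GENCODE M21 (GRCm38), which holds 98.7% of the deposited transcript versions; types were matched without version (99.1%).

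The members and gene lists were chosen with earlier results of these data known. All members are named. Values in every library are given for members without overlap between groups, the 6 with the smallest p and the 8 most abundant, and for Jun and Atf3. Other lists are shown by up to 3 genes of smallest p, with the Dusp genes of the second list added. Marker lists are shown by their sums, with Pvalb added. The fit was also run on simulated data with independent noise for each gene. The outcome is not given here, so how large a change would have passed is not stated. Alternatives were pseudocounts of 0.5 and 0.1, no filter, a minimum of 5 TPM, median-of-ratios and quantile scaling, TPM without mitochondrial genes, protein-coding transcripts only, robust empirical Bayes, array weights, a replicate block and leaving out each library. Figures used Python 3.11.15 and matplotlib 3.10.9.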

Additional observations from a re-analysis of the deposited data

How the results depend on the processing

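No immediate early gene passed under any of the 17 alternatives, where the smallest adjusted p was 0.222 (limma, Rhob on protein-coding transcripts only), and 17 of the 30 tested members kept their direction in every alternative in which they were tested. The other 13 turned sign at least once. Robust empirical Bayes, the replicate block, no filter and the minimum of 5 TPM leave log2 fold changes as they are and could turn no sign. Leaving out single libraries gave log2 fold changes from -0.21 to 0.09 for Fos, -0.03 to 0.10 for Junb, -0.07 to 0.12 for Egr1, -0.09 to 0.29 for Egr2, -0.09 to 0.25 for Nr4a1, -0.03 to 0.12 for Nr4a2, -0.04 to 0.27 for Klf2, -0.14 to 0.08 for Klf4, -0.007 to 0.07 for Srf, -0.11 to 0.02 for Csrnp1, -0.04 to 0.10 for Dusp4, -0.05 to 0.01 for Ier3 and -0.05 to 0.06 for Ier5. Array weights turned Klf4 to 0.0046 and Ier5 to 0.01, quantile normalization to 0.0013 and 0.0015, and Dusp4 was at -0.002 under median-of-ratios scaling and -0.0074 without mitochondrial genes; the cause was not tested. With single libraries left out, 18 to 25 members were higher and 5 to 12 lower, and 8 to 11 did not overlap (11 without fed replicate 2, fed replicate 3 or fasted replicate 1) beside 25.2% to 32.8% of all genes, since fewer libraries overlap less often. With a minimum of 5 TPM, which leaves 21 members, 2 were lower and 4 did not overlap, beside 18.8% of all genes without overlap. Over all genes 1 passed, 0 without a filter (with an unadjusted p under 0.05 in 1281 higher and 802 lower genes) and 0 on protein-coding transcripts (1027 and 453), 2 with pseudocounts of 0.5 or 0.1, and 1 to 7 with a library left out. The replicate block gave 1 gene and 0 members past the threshold. In this balanced design it leaves each log2 fold change as it was, so the 22 members higher and the median of 0.064 could not change. By limma, unadjusted p was under 0.05 in 1159 higher and 565 lower genes, against 1015 and 486 in the main fit. Among members these were 5 and 1, against 4 and 1. Libraries with the same number share only that number by the labels; the correlations of their deviations across genes were 0.09, 0.11 and 0.07, and each library correlated best with its own number. TPM hold no depth, so how far counting error limits genes near 1 TPM is unknown.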

Other observations

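The following values were singled out after they were seen and were not tested. Nr4a2 overlapped between the diets as a gene, but its 2 main protein-coding transcripts, which have the same coding length of 1794 bases, did not. Nr4a2-201 was at 4.22, 3.97 and 3.82 TPM in fed ganglia and at 3.16, 3.29 and 2.77 TPM in fasted replicates 1, 2 and 3. Nr4a2-203 was at 0.68, 2.45 and 1.83 TPM in fed ganglia and at 2.95, 3.01 and 3.16 TPM in fasted ganglia. For Klf10 the main transcript, Klf10-201, was further apart than the gene, at 12.6, 12.4 and 12.9 TPM in fed ganglia and 17.9, 16.6 and 15.5 TPM in fasted ganglia. The 2 forms of Nr4a2 differed in opposite directions. How large a share of all transcripts does not overlap between the diets is not given here. Transcript values share reads among forms and are less certain than gene sums.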
